A study of Arabidopsis thaliana with 12 samples.

Results

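Expansins are wall proteins that loosen the contacts between cellulose and the matrix polysaccharides, so that a plant cell can enlarge under its own turgor. The family holds alpha-expansins (EXPA), beta-expansins (EXPB) and the expansin-like A and B groups (EXLA and EXLB), and only the first 2 groups are established as wall-loosening proteins. Gibberellin (GA) promotes elongation of stems and leaves, and expansin genes are among the growth genes whose transcripts change with this hormone in many plants. EXPA5, whose product acts in leaf and stem growth, was set against 5 further expansin genes, so that the 6 genes were EXPA5 (AT3G29030), EXPA4 (AT2G39700), EXPA8 (AT2G40610), EXPA15 (AT2G03090), EXPA20 (AT4G38210) and EXPB3 (AT4G28250). They were chosen by name and locus, not by a threshold on their values, but with earlier results of these data known. Each had 1 probe set among the 16764 probe sets that are not controls.

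Shoots of 18-d-old Arabidopsis seedlings of the Col-0 background were measured on 12 ATH1 arrays, 3 for each of 4 genotypes. The genotypes were ga1-3/brm-1, which carries both mutations, brm-1, a mutant of the BRAHMA (BRM) ATPase of SWI/SNF chromatin remodeling complexes, ga1-3, a mutant of the first committed enzyme of GA synthesis, and the wild type. The labels give no treatment of the seedlings, and the design text of the series has all lines grown at the same time in like conditions. The seeds of the lines with ga1-3, an allele introgressed into Col-0, had been imbibed in GA3 and washed, and the sources give this for no other line, so early GA3 and the ga1-3 mutation cannot be told apart. The brm-1 homozygotes are sterile and were picked by genotyping among segregating progeny. The replicates were biological replicates according to the methods, and whether an RNA sample pooled several seedlings is not given in the sources used here.

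The BRM probe set lay at 2.88 ± 0.14 in ga1-3/brm-1 and 2.89 ± 0.11 in brm-1, against 8.14 ± 0.19 in ga1-3 and 7.88 ± 0.06 in the wild type (log2 signal, SD, n = 3). GA1 had no named probe set, so the ga1-3 label was not checked in this way. On the first principal component of the deviations from genotype means, the third brm-1 array was at 37.8 and the other 11 arrays lay between -20.0 and 6.99. The excess of 3' over 5' signal of the actin, GAPDH and ubiquitin controls was highest on the third ga1-3 array (6.38, 3.71 and 1.46 on the log2 scale), and the first wild-type array had the next highest (5.97, 3.45 and 1.40). Of 22 markers of shoot, root, floral and meristem cells only 2 had a named probe set, both floral: PI averaged 5.07 in ga1-3/brm-1, 6.33 in brm-1 and 6.04 in ga1-3, against 6.0 in the wild type, and SEP3 averaged 7.62, 8.26, 5.12 and 7.22 in the same genotypes. The shoot label was seen through 7 photosystem and antenna probe sets chosen afterwards, whose medians were 13.1 in ga1-3/brm-1, 13.3 in brm-1 and 13.6 in ga1-3, against 13.8 in the wild type. The shoots are mixtures of cell types, so fewer cells of a type and less RNA per cell cannot be told apart, and the part of floral tissue in the expansin results was not tested.

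EXPA5 decreased in each mutant, and the 4 genotypes stood in separate ranges. Its log2 signals were 4.40, 4.50 and 4.25 on the ga1-3/brm-1 arrays, 6.01, 5.90 and 5.99 on the brm-1 arrays, 5.04, 5.28 and 5.41 on the ga1-3 arrays, and 6.53, 7.27 and 6.96 on the wild-type arrays. No array of any genotype fell within the range of another genotype, and the mean was lowest in ga1-3/brm-1, then in ga1-3, then in brm-1, and highest in the wild type. A signal below 4.58, the 25th percentile of all values in the table, is called dim, and the ga1-3/brm-1 mean of 4.38 ± 0.12 was the only dim EXPA5 mean. A dim level may be background, so a fold against a dim mean is a ratio of signals and not an exact fold of transcript.

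Each step in this order passed the test, which was a linear model for every probe set (limma) in which a call needs a fold change of more than 1.5 together with a p below 0.05 after Benjamini-Hochberg adjustment. Relative to the wild type, EXPA5 was 5.81-fold lower in ga1-3/brm-1 (-2.54 ± 0.17 on the log2 scale, where ± gives the standard error of a fold change, adjusted p = 5.47e-06). It was 1.94-fold lower in brm-1 (log2 fold change -0.95 ± 0.17, adjusted p = 0.00287). The ga1-3 level was 3.20-fold lower than the wild type (-1.68 ± 0.17, adjusted p = 0.000243). EXPA5 was also lower in ga1-3/brm-1 than in ga1-3 (-0.86, adjusted p = 0.00326) and lower in ga1-3/brm-1 than in brm-1 (-1.58, adjusted p = 0.000479). EXPA5 was higher in brm-1 than in ga1-3 by 0.72 (adjusted p = 0.0120). The loss of BRM was thus accompanied by less EXPA5 transcript both with and without the ga1-3 mutation. The probe set of EXPA5 was named only through tables of genes that the study had called changed, so that EXPA5 changed at all is not independent evidence. The study also picked EXPA5 among genes with an enhanced change in the double mutant. Its lower level in ga1-3/brm-1 than in brm-1 or ga1-3 is therefore not independent evidence either.

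**Figure D1:**
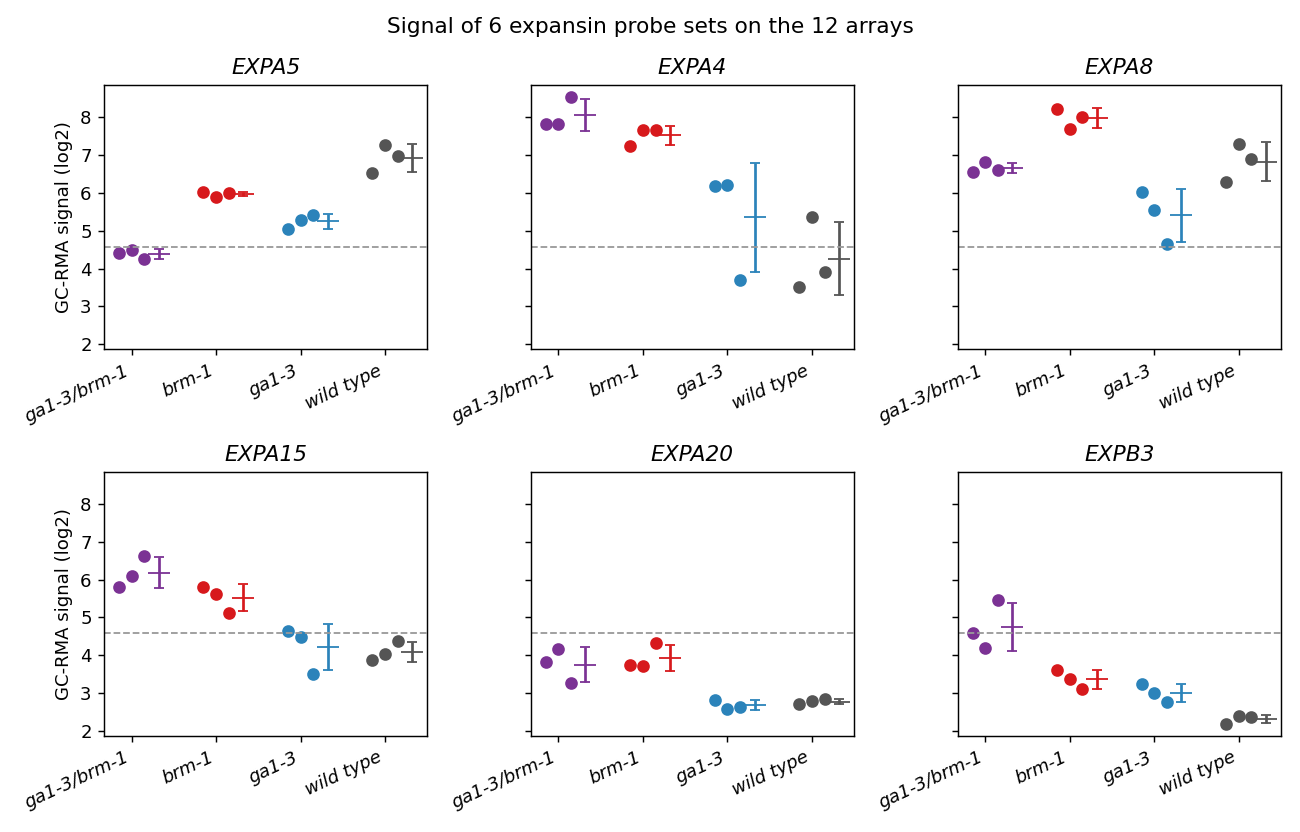
Log2 GC-RMA signal (y axis) of 6 expansin probe sets in ga1-3/brm-1, brm-1, ga1-3 and the wild type (x axis), with 1 point per array in replicate order, a horizontal line and bar for the mean ± SD (n = 3) and a dashed line at the dim level of 4.58. EXPA5 is lowest in ga1-3/brm-1 and highest in the wild type, whereas the other 5 have a higher mean in brm-1 than in the wild type.

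EXPA4, an alpha-expansin, had the largest rise of the 6 genes in brm-1. It read 7.82, 7.82 and 8.53 in ga1-3/brm-1, 7.24, 7.65 and 7.66 in brm-1, 6.17, 6.20 and 3.69 in ga1-3, and 3.52, 5.36 and 3.90 in the wild type, where its mean of 4.26 ± 0.97 was dim. All arrays of the lines with brm-1 lay above all arrays of ga1-3 and the wild type, and the third ga1-3 array lay within the wild-type range. Relative to the wild type, EXPA4 was 13.9-fold higher in ga1-3/brm-1 (log2 fold change 3.80 ± 0.65, adjusted p = 0.00122) and 9.56-fold higher in brm-1 (3.26 ± 0.65, adjusted p = 0.00555). It was 6.52-fold higher in ga1-3/brm-1 than in ga1-3 (2.70, adjusted p = 0.00938). The changes of EXPA4 with the loss of GA1 did not pass the test, either for ga1-3/brm-1 against brm-1 (0.54, 95% interval -0.90 to 1.98) or for ga1-3 against the wild type (1.09 ± 0.65, adjusted p = 0.310). In the order ga1-3/brm-1, brm-1, ga1-3, wild type only the step between brm-1 and ga1-3 passed (2.16, adjusted p = 0.0364), and it no longer passed without any 1 of the brm-1 arrays (2.09 to 2.30). The ga1-3 value turned on 1 array: without the third ga1-3 array, which also had the highest 3' minus 5' controls, EXPA4 was higher in ga1-3 than in the wild type by 1.93 (adjusted p = 0.0247), was higher in ga1-3/brm-1 than in ga1-3 by 1.87, and no longer passed between brm-1 and ga1-3 (1.33).

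EXPA8, another alpha-expansin, was higher without BRM and lower without GA1. It read 6.56, 6.82 and 6.60 in ga1-3/brm-1, 8.22, 7.69 and 8.0 in brm-1, 6.03, 5.54 and 4.64 in ga1-3, and 6.28, 7.30 and 6.89 in the wild type. The brm-1 arrays were the highest and the ga1-3 arrays the lowest, while ga1-3/brm-1 lay within the wild-type range. EXPA8 was 2.22-fold higher in brm-1 than in the wild type (1.15 ± 0.34, adjusted p = 0.0342) and 2.39-fold higher in ga1-3/brm-1 than in ga1-3 (1.26, adjusted p = 0.0158). It was 2.67-fold lower in ga1-3 than in the wild type (-1.42 ± 0.34, adjusted p = 0.0203) and 2.48-fold lower in ga1-3/brm-1 than in brm-1 (-1.31, adjusted p = 0.0277). The difference of ga1-3/brm-1 from the wild type did not pass (-0.16, 95% interval -0.91 to 0.59). The rise of EXPA8 in brm-1 lost its call in 4 of the 12 fits that left out 1 array (log2 fold change 0.88 to 1.39), those without brm-1 replicate 1, brm-1 replicate 3, wild-type replicate 1 or wild-type replicate 3, and the fall in ga1-3 in those without wild-type replicate 2 or 3 (-1.18 and -1.39). The fall from the brm-1 level in ga1-3/brm-1 was lost in 5 of these fits, without brm-1 replicate 1 or 3 or any 1 of the ga1-3/brm-1 arrays (-1.18 to -1.39). Without the third arrays of both brm-1 and ga1-3, the rise of EXPA8 in ga1-3/brm-1 over ga1-3 was 0.87 and missed the threshold (adjusted p = 0.0516).

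EXPA15, also an alpha-expansin, showed separate levels with and without BRM. It read 5.81, 6.10 and 6.62 in ga1-3/brm-1, 5.81, 5.62 and 5.12 in brm-1, 4.65, 4.48 and 3.51 in ga1-3, and 3.87, 4.02 and 4.37 in the wild type, and the means of ga1-3 and the wild type were dim. The 6 arrays with brm-1 all lay above the 6 arrays without it. EXPA15 was 4.26-fold higher in ga1-3/brm-1 than in the wild type (2.09 ± 0.31, adjusted p = 0.000568), 2.69-fold higher in brm-1 than in the wild type (1.43 ± 0.31, adjusted p = 0.00915) and 3.90-fold higher in ga1-3/brm-1 than in ga1-3 (1.96, adjusted p = 0.00107). Neither ga1-3/brm-1 against brm-1 (0.66, adjusted p = 0.191) nor ga1-3 against the wild type (0.13, adjusted p = 0.854) passed, so that only the step between brm-1 and ga1-3 was called in the order of its means (1.30, adjusted p = 0.0140). This call was lost when only the arrays of brm-1 and ga1-3 were fitted (adjusted p = 0.0539).

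EXPA20, an alpha-expansin, was dim in all 4 genotypes. It read 3.82, 4.17 and 3.26 in ga1-3/brm-1, 3.74, 3.71 and 4.32 in brm-1, 2.83, 2.58 and 2.63 in ga1-3, and 2.70, 2.78 and 2.84 in the wild type. Every array with brm-1 was above every array without it. The EXPA20 means in the wild type (2.78) and ga1-3 (2.68) lay near the level of the BRM probe set in ga1-3/brm-1 (2.88). No fold of transcript is therefore given. The log2 signal differences from the wild type were 0.97 ± 0.22 in ga1-3/brm-1 (adjusted p = 0.00613) and 1.15 ± 0.22 in brm-1 (adjusted p = 0.00470). Relative to ga1-3, the difference of ga1-3/brm-1 was 1.07 (adjusted p = 0.00437). The highest means, in brm-1 and ga1-3/brm-1, were not told apart (-0.17 for ga1-3/brm-1 against brm-1, adjusted p = 0.669), and neither were the lowest (-0.10 for ga1-3 against the wild type, adjusted p = 0.836).

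EXPB3, the beta-expansin among the 6 genes, was highest in ga1-3/brm-1. It read 4.59, 4.20 and 5.46 in ga1-3/brm-1, 3.61, 3.38 and 3.10 in brm-1, 3.25, 2.99 and 2.76 in ga1-3, and 2.19, 2.40 and 2.36 in the wild type, and only the ga1-3/brm-1 mean (4.75 ± 0.64) was not dim. The brm-1 and ga1-3 arrays overlapped, and all of both lay above the wild type. The brm-1 and wild-type means of EXPB3 (3.36 and 2.32) lay near the 2.88 that the BRM probe set read in ga1-3/brm-1, so no fold of transcript is given. The log2 signal differences from the wild type were 2.43 ± 0.27 in ga1-3/brm-1 (adjusted p = 9.76e-05) and 1.04 ± 0.27 in brm-1 (adjusted p = 0.0208). Unlike EXPA4, EXPA15 and EXPA20, EXPB3 was called between ga1-3/brm-1 and brm-1 (1.39, adjusted p = 0.00914), a call lost when only the arrays of these genotypes were fitted (adjusted p = 0.0632), but whether this difference differed between the genes was not tested. The value in ga1-3 was 0.68 ± 0.27 (adjusted p = 0.129), which did not pass, and it passed without ga1-3/brm-1 replicate 3 (adjusted p = 0.0307), with only the arrays of ga1-3 and the wild type (0.0297) and with array weights (0.0439). The brm-1 call was lost in 4 of the 12 fits without 1 array (0.92 to 1.17), those without brm-1 replicate 1 or 2 or wild-type replicate 1 or 3.

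Counted over the 6 genes, 5 rose and EXPA5 fell with the loss of BRM in either GA1 background. The 6 genes were listed with earlier results of these data known. Counts over them, here and below, therefore describe the list and are not independent evidence. In brm-1 against the wild type 5 rose and 1 fell, where 7.09% of all probe sets rose and 7.58% fell, and the median log2 fold change was 1.15 over the 6 genes and 0.01 over all probe sets. In ga1-3/brm-1 against ga1-3 the same 5 genes rose and EXPA5 fell, against 10.8% and 10.1% of all probe sets, with medians of 1.5 and -0.03. These comparisons share no array with each other. When probe sets with a mean signal below 4.58 were left out, EXPA20 and EXPB3 dropped out and the remaining 4 genes kept their calls in both. The study kept a gene if it was detected in some replicate of a genotype. EXPA20 and EXPB3 may thus be present only through the genotypes where they were high, which was not tested.

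With the loss of GA1, EXPA5 and EXPA8 fell in either BRM background. In ga1-3 against the wild type 0 of the 6 rose and 2, EXPA5 and EXPA8, fell, where 4.06% of all probe sets rose and 4.74% fell in limma. At an unadjusted p under 0.05 there were 1 higher and 2 lower genes, and the medians were 0.01 for the 6 genes and 0.02 for all probe sets. The share of all probe sets at an unadjusted p is not given, here or below, so counts at that threshold stand alone. With only the arrays of ga1-3 and the wild type, EXPA8 lost its call (adjusted p = 0.0682) and EXPB3 gained one, so that the count of 2 stayed while its members changed. In ga1-3/brm-1 against brm-1 EXPB3 rose and EXPA5 and EXPA8 fell, which is 1 up and 2 down against 4.98% and 3.78% of all probe sets.

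In ga1-3/brm-1 against the wild type 4 of the 6 rose and EXPA5 fell, against 12% up and 11.6% down over all probe sets, with medians of 1.53 and -0.02. EXPA8 was the gene without a call. In brm-1 against ga1-3, where neither is a control, 5 genes were higher and 0 lower, against 7.55% and 7.20% of all probe sets in limma. The gene outside this count was EXPB3 (0.36, adjusted p = 0.389), and an unadjusted p under 0.05 gave the same numbers of 5 and 0.

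**Figure D2:**
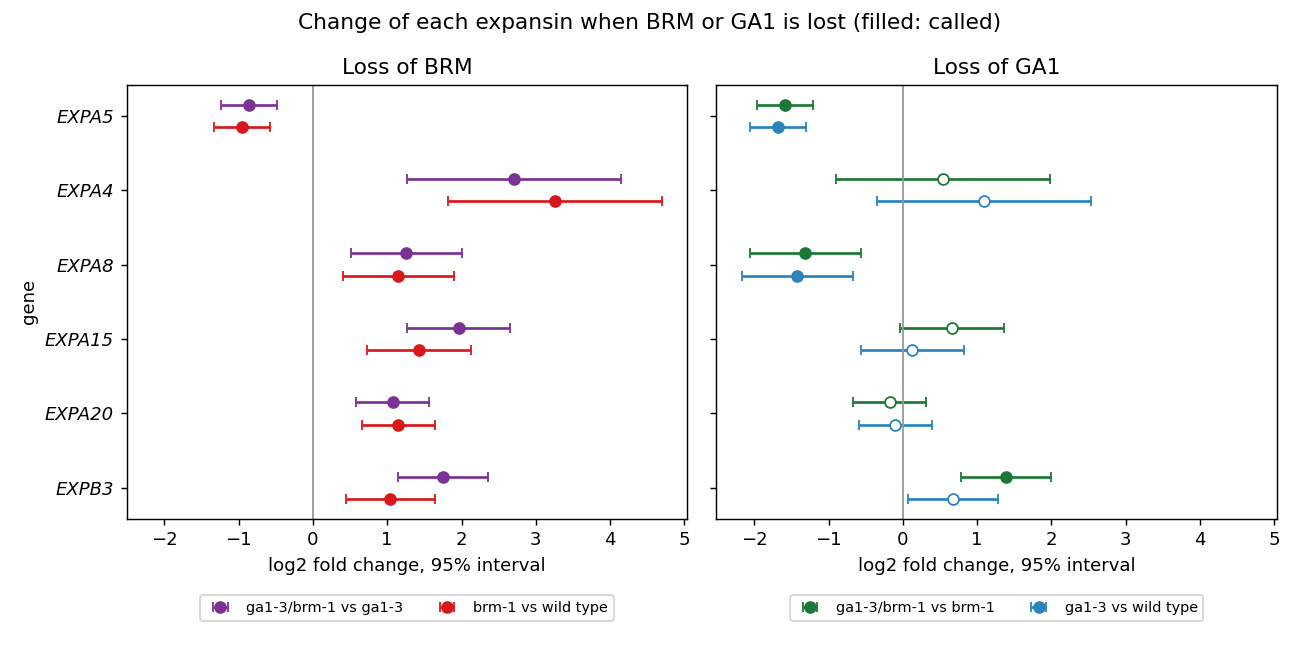
Log2 fold change (x axis, points, with 95% intervals as bars) of each expansin (y axis) with the loss of BRM (left, ga1-3/brm-1 against ga1-3 above brm-1 against the wild type) and the loss of GA1 (right, ga1-3/brm-1 against brm-1 above ga1-3 against the wild type), filled where called. On the left EXPA5 lies below 0 and the other 5 above it in both comparisons, and on the right EXPA5 and EXPA8 are called below 0 in both comparisons, while EXPA20 lies below 0 without a call.

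The contrast of EXPA5 with the other genes was tested directly by subtracting the EXPA5 log2 value from every other probe set on the same array before the fit. The same EXPA5 values enter every row, which the fit takes as independent, so its intervals, p-values and shares may be too confident. In brm-1 the standard error of EXPA4 was 0.49 here, below the 0.65 of its own change. With ordinary variance, where each probe set keeps its own spread, all 5 still differed in brm-1 against the wild type. In brm-1 against the wild type the change of each of the other 5 exceeded that of EXPA5, by 4.21 for EXPA4 (95% interval 3.20 to 5.22), 2.38 for EXPA15, 2.1 for EXPA8, 2.1 for EXPA20 and 2.00 for EXPB3, all at an adjusted p under 0.05. Because EXPA5 fell, 84.8% of all probe sets differed from it in the same direction, and 5 of 5 is read against that share. In ga1-3/brm-1 against ga1-3 all 5 again exceeded EXPA5, by 3.57 for EXPA4, 2.82 for EXPA15, 2.61 for EXPB3, 2.12 for EXPA8 and 1.93 for EXPA20, where 75.1% of all probe sets did. In ga1-3 against the wild type 4 of the 5 exceeded it, where 97.1% of all probe sets did, and the exception was EXPA8, whose change was 0.26 above that of EXPA5 (95% interval -0.38 to 0.89, adjusted p = 0.412). With the ga1-3 mutation alone EXPA8 was therefore not told apart from EXPA5, while in brm-1 the changes of EXPA5 and EXPA8 had opposite signs.

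The ga1-3/brm-1 value of each gene was also set against the sum of the changes in brm-1 and ga1-3, the value expected if the changes add on the log2 scale. EXPA5 changed by -2.54 in ga1-3/brm-1, against a sum of -2.63, and the interaction was 0.09 (95% interval -0.43 to 0.62, adjusted p = 0.849). From RT-qPCR and these arrays the study had described the effects on EXPA5 as apparently additive, so this value is not independent evidence. The interaction was 0.11 for EXPA8 (-0.95 to 1.16) and -0.07 for EXPA20 (-0.77 to 0.62). Its interval was wider for EXPA4, at -0.55 (-2.59 to 1.48), and the value of EXPA4 ran from -1.39 without ga1-3 replicate 3 to -0.13 without ga1-3 replicate 2. The interaction of EXPB3 was 0.71 (-0.15 to 1.56, adjusted p = 0.290). It was 0.54 for EXPA15 (-0.45 to 1.52). The limma fit called 0 of the 6 interactions at an adjusted p under 0.05. Of all probe sets 4.42% had a positive and 4.48% a negative interaction at that threshold. At an unadjusted p under 0.05, for which no such share is given, there were also 0 of the 6. These intervals still allow interactions of the size given by their bounds.

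**Figure D3:**
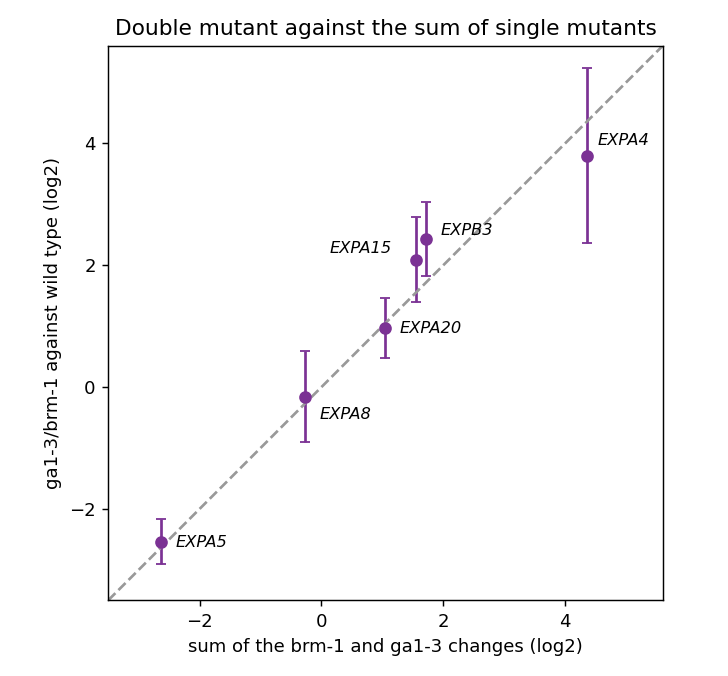
Log2 fold change of ga1-3/brm-1 against the wild type (y axis, points, with 95% intervals as bars) against the sum of the changes of brm-1 and ga1-3 (x axis, log2) for 6 expansins, with the dashed line where both are equal. The interval of each gene crosses the line for EXPA4, EXPA5, EXPA8, EXPA15 and EXPA20, and the EXPB3 point lies above it, at 2.43 against a sum of 1.72, though the interval of its interaction includes 0.

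A further 7 family members had a named probe set, among 38 expansin and expansin-like genes of the reference table, of which 25 had none here. EXPA1 and EXPA13 were named only through the study's tables of called genes, and EXPA9, EXPA16, EXLA1, EXLA2 and EXLB1 through the platform table. Relative to the wild type, 3 of the 7 rose in ga1-3/brm-1 and 2 fell, where 12% and 11.6% of all probe sets did. In brm-1 there were 2 rises and 1 fall, against 7.09% and 7.58% of all probe sets. In ga1-3 there were 0 rises and 3 falls, against 4.06% and 4.74% (0 higher and 3 lower at an unadjusted p under 0.05 in limma). The risers in brm-1 were the alpha-expansins EXPA1 and EXPA13, and the third call was the fall of EXLB1, the only call among the 5 platform-named members. These 2 rises were small: that of EXPA1 was lost in 10 of the 12 fits that left out 1 array (0.46 to 0.90), all but those without brm-1 replicate 3 or wild-type replicate 2, and that of EXPA13 in 4, without brm-1 replicate 2 or 3 or wild-type replicate 1 or 2 (0.55 to 0.87). In ga1-3/brm-1 against ga1-3, 3 of the 7 rose and 0 fell, against 10.8% and 10.1% of all probe sets. The risers there were EXPA1 (1.29, adjusted p = 0.00172), EXPA9 (1.32, adjusted p = 0.000664) and EXPA16 (1.53, adjusted p = 0.00186).

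The alpha-expansin EXPA1 had its genotypes in the same order as EXPA8, with brm-1 highest and ga1-3 lowest. It averaged 9.86 in ga1-3/brm-1, 10.60 in brm-1 and 8.58 in ga1-3, against 9.90 in the wild type. Its log2 fold changes relative to the wild type were -0.03 in ga1-3/brm-1, which did not pass, 0.70 in brm-1 (adjusted p = 0.0478), and for ga1-3 -1.32 (adjusted p = 0.00397). EXPA16 averaged 6.88 in ga1-3/brm-1, 5.26 in brm-1 and 5.35 in ga1-3, against 4.83 in the wild type, and was called against each of the others only in ga1-3/brm-1 (2.05 against the wild type, 1.53 against ga1-3 and 1.62 against brm-1). EXPA9 averaged 6.64, 6.15, 5.33 and 5.67 in ga1-3/brm-1, brm-1, ga1-3 and the wild type, and EXPA13 averaged 6.83, 6.73, 6.29 and 6.01.

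Of the expansin-like genes, whose action on walls is not established, EXLB1 fell in each mutant. It averaged 3.10 in ga1-3/brm-1, 2.99 in brm-1 and 3.13 in ga1-3, all dim, against 5.35 in the wild type, with log2 fold changes of -2.25, -2.36 and -2.22. EXLA2 was dim in all 4 genotypes. Its means were 3.04 in ga1-3/brm-1, 4.17 in brm-1 and 3.47 in ga1-3, against 4.37 in the wild type. This order of genotypes was that of EXPA5. Log2 signal differences of EXLA2 from the wild type were called for ga1-3/brm-1 (-1.33) and ga1-3 (-0.90), while that of brm-1 did not pass (-0.20). EXLA2 was also called lower in ga1-3/brm-1 than in brm-1 (-1.13), whereas its difference between ga1-3/brm-1 and ga1-3 did not pass (-0.43). EXLA1 averaged 9.49 in ga1-3/brm-1, 10.02 in brm-1 and 9.89 in ga1-3, against 9.96 in the wild type, and its brm-1 arrays spread from 8.36 to 10.91, with the third brm-1 array the lowest and the other 2 above all wild-type arrays. Its change in brm-1 was 0.88 without that array.

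**Figure D4:**
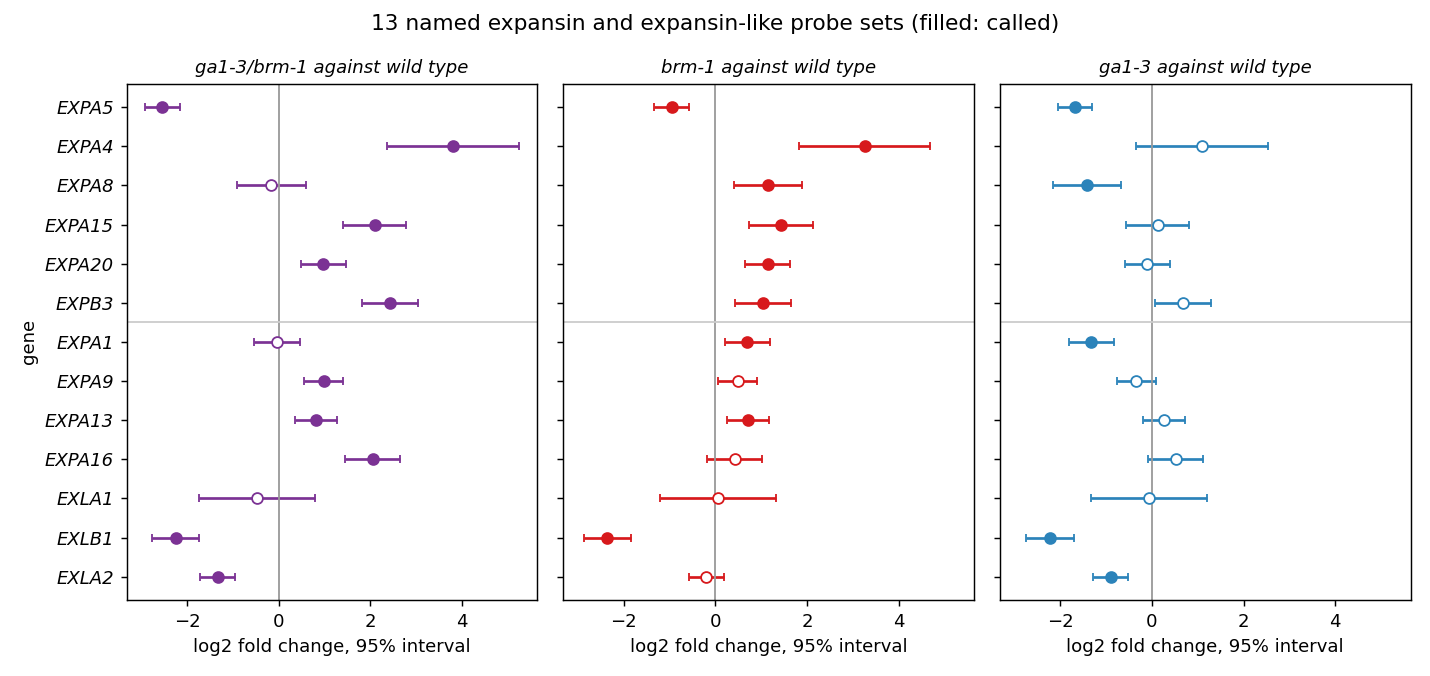
Log2 fold change relative to the wild type (x axis, points, with 95% intervals as bars, filled where called) of 13 named expansin and expansin-like probe sets (y axis) in ga1-3/brm-1, brm-1 and ga1-3. EXPA5 and EXLB1 are called below 0 in all 3 mutants, and EXPA1 and EXPA8 are called above 0 in brm-1 and below 0 in ga1-3.

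The genes whose log2 values over the 12 arrays were most like each expansin were looked for among 10966 probe sets with 1 named gene, as a description, since the 12 arrays share genotypes. Of the named probe sets 1700 had a name only through the study's tables of genes called changed, and 5439 unnamed ones were not searched. Of the genes given below, IAA7, FAD2, ASG8, WRKY57, IPMI2, PARVUS and NIP1;2 were named through those tables. For EXPA5 the nearest were IAA7 (Pearson r = 0.976) and IAA29 (0.961), both repressors of auxin response, and AT1G13670 (0.970), AT1G14890 (0.966) and AT1G61900 (0.962). IAA7 averaged 9.46 in ga1-3/brm-1, 10.94 in brm-1 and 10.10 in ga1-3, against 11.47 in the wild type, the same order of genotypes as EXPA5. For EXPA8 the nearest were TCP15 (0.968), a transcription factor gene of the TCP family, and ASG8 (0.957). TCP15 averaged 7.03 in ga1-3/brm-1, 8.59 in brm-1 and 6.03 in ga1-3, against 7.04 in the wild type, so that ga1-3/brm-1 lay near the wild type as it did for EXPA8. For EXPA4 they were FAD2 (0.979), a fatty acid desaturase gene, and AAPT2 (0.976), for EXPA15 WRKY57 (0.975) and IPMI2 (0.966), for EXPA20 PARVUS (0.963), a gene of xylan synthesis, and NIP1;2 (0.957), and for EXPB3 AT4G30020 (0.970) and AT5G66650 (0.964). Among the 6 genes themselves, EXPA4 and EXPA15 were the most alike (r = 0.913), followed by EXPA15 and EXPB3 (0.893), and EXPA5 ran most clearly opposite to EXPB3 (-0.840).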

How the data were processed

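The authors hybridised biotin-labelled RNA from shoots to Affymetrix ATH1 arrays, and the deposited values are log2 signals after GC-RMA in Partek (versions not given in the sources used here). The table had already passed their detection filter, which kept genes detected in some replicate of a genotype, and holds 16824 probe sets. The 60 control probe sets were left out. The number of arrays limits the precision.

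The signals were not normalized again. A model with genotype as its single term was fitted to the 12 arrays by lmFit and eBayes (limma 3.58.1 under R 4.3.3), and p-values were adjusted over all 16764 probe sets of a contrast. The interaction and the differences from EXPA5 were called on the adjusted p alone. The script was tested on simulated data. Probe sets were named through the platform table (9267 with 1 gene, 358 with several) or the study's tables (1700), and 5439 stayed unnamed. The members and lists were chosen with earlier results of these data known. The genes named are the 6 expansins, the other family members, BRM, and for EXPA5 the 5 and for the others the 2 most correlated probe sets. Promoter sequences were not used here. The alternatives tried were quantile normalization, median centring, ordinary variance, a robust intensity trend, array weights, a replicate block, the compared genotypes only, a low-signal filter, a fold threshold of 2, each array left out, and a second factor, whose meaning the methods do not give and whose levels come from an earlier analysis; leaving out the third arrays of brm-1 and ga1-3 together was added after seeing the data. Plots were made in matplotlib 3.10.9 (Python 3.11.15).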

Additional observations from a re-analysis of the deposited data

Results flagged for a closer look

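For EXLB1, an expansin-like B gene, the change with the loss of BRM differed between the GA1 backgrounds. The interaction was 2.32 on the log2 scale (95% interval 1.58 to 3.06, limma adjusted p = 0.00432). EXLB1 fell by 2.25 in ga1-3/brm-1, while the changes in brm-1 and ga1-3 add to -4.57. Of the 7 family members beside the 6 expansins 1 was called, EXLB1, where 4.42% of all probe sets had a positive interaction at an adjusted p under 0.05. At an unadjusted p under 0.05, for which no such share is given, there were 3. These were EXLB1, EXPA9 at 0.83 (adjusted p = 0.0859) and EXPA16 at 1.10 (adjusted p = 0.101). The count of calls was 2 with array weights, with the second factor, and without brm-1 replicate 3 or wild-type replicate 1. It was 0 with the low-signal filter, which leaves out EXLB1 itself. The EXLB1 mean was dim in each mutant, at 3.10 in ga1-3/brm-1, 2.99 in brm-1 and 3.13 in ga1-3, against 5.35 in the wild type, so a fall below the level of brm-1 or ga1-3 may not have been measurable.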

How the results depend on the processing

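Of 976 values of single genes under the alternatives, 916 kept their direction and side of the threshold, 34 lost a call, 6 gained one and 20 changed sign, none of them a called value. EXPA5 kept its calls in all comparisons except under a fold threshold of 2, where brm-1 against the wild type, ga1-3/brm-1 against ga1-3 and brm-1 against ga1-3 no longer passed. The cause of the changes below was not tested, except that a filter or a stricter threshold removes genes by construction. Calls over all probe sets moved as well. For ga1-3 against the wild type they were 1474 in the main fit, 1107 with ordinary variance and 2056 with array weights. For brm-1 they were 2459 in the main fit, 2039 with ordinary variance, 2110 with the compared genotypes only and 1227 at a fold over 2. For ga1-3/brm-1 they were 3964, against 3304 with the filter and 2043 at a fold over 2. Of the 6 expansins, ga1-3 against the wild type had 1 call with ordinary variance, 4 with array weights and 1 to 3 when an array was left out (1 without wild-type replicate 2 or 3); brm-1 against ga1-3 had 3 with the compared genotypes only; and ga1-3/brm-1 against the wild type had 3 with the low-signal filter, which drops EXPA20 and EXPB3 and leaves 3 of the differences from EXPA5 in brm-1. Of the 7 other family members, brm-1 against the wild type had 1 call with ordinary variance, 1 with the compared genotypes only, 1 at a fold over 2 and 1 to 3 without an array (1 without brm-1 replicate 2 or wild-type replicate 1). For ga1-3/brm-1 against the wild type there were 3 with the filter and 3 at a fold over 2, for ga1-3 against the wild type 1 with the filter, for brm-1 against ga1-3 1 at a fold over 2, and for ga1-3/brm-1 against brm-1 2 to 4 without an array (4 without brm-1 replicate 3). The interaction count was 2 with array weights, 2 with the second factor, 0 with the filter and 1 to 2 without an array (2 without brm-1 replicate 3 or wild-type replicate 1). Values that changed sign were those of EXPA20 in ga1-3/brm-1 against brm-1 (0.018 with array weights, -0.38 to 0.072 without an array), the interactions of EXPA8 (-0.082, and -0.28 to 0.42) and EXPA20 (0.086, and -0.29 to 0.17), and, without an array, EXPA15 in ga1-3 (-0.092 to 0.48), EXPA8 in ga1-3/brm-1 (-0.43 to 0.077) and the interaction of EXPA5 (-0.081 to 0.29). The interaction of EXPA15 (0.19 to 0.76 without 1 array) changed sign only with the third arrays of brm-1 and ga1-3 both left out (-0.0145).

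Replicate numbers did not pair the arrays: deviations of same-numbered arrays correlated at -0.20 to 0.12. With the replicate block brm-1 against the wild type had 2310 calls over all probe sets, against 2459 without it, and 1 call of the 6 expansins was lost, that of EXPA8 in brm-1 (adjusted p = 0.054). With only 3 arrays per genotype and dim means for EXPA20 and EXPB3, small changes could not be measured.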

Other observations

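The first wild-type array had the lowest signal of the 3 wild-type arrays for 6 of the 6 expansins and for 11 of the 13 named family members, where it was the lowest for 32.1% of all probe sets. Replicate 3 of ga1-3 was the lowest of its genotype for 4 of the 6 and for 7 of the 13, where it was the lowest for 40.4% of all probe sets. These are the arrays with the highest 3' minus 5' control signals, and the part of RNA quality in the expansin values was not tested. For EXPA5 replicate 3 of ga1-3 read 5.41 and was the highest of its genotype.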
